A study of Mus musculus with 24 samples.

Results

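The comparison asked which responses of dendritic cells (DCs) to an allergen injection depended on whether the pup's mother was asthmatic. It used 15 of the 24 arrays of the study, chosen by their titles as the arrays numbered AF76 to AF91, which hold all 4 combinations of mother and injection. The methods describe a first set with these 4 groups and a second set without naïve pups, and the arrays were matched to them by number and group size. Every array held RNA of splenic CD11c+ DCs, retained on magnetic beads from collagenase-treated spleens of BALB/c pups at day 14 of life. Naïve normal pups (3 arrays) were offspring of control mothers and received no injection, and naïve asthma-at-risk pups (4 arrays) were uninjected offspring of mothers made asthmatic by ovalbumin (OVA) with alum and later OVA aerosols. Allergen-stimulated normal pups (4 arrays) and allergen-stimulated at-risk pups (4 arrays) had the same kinds of mothers and received 1 intraperitoneal injection of 5 µg of OVA with 1 mg of alum, on day 3 by the labels and on day 4 by the methods. The remaining 9 arrays, of stimulated pups of the second set (4 normal and 5 at-risk), served only as separate arrays for the difference between stimulated groups. Naïve pups received neither OVA nor alum nor an injection, so effects of these 3 cannot be told apart. Control mothers were challenged with saline by the methods. The methods call the arrays of a group biological replicates but do not say how many pups went into an array. The number of mothers or litters behind a group is not given either. P-values therefore measure the spread between arrays, and effects of a shared litter cannot be told apart from those of maternal status.

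DCs take up antigen in tissue, move to the T cell areas and present peptides on MHC class II, and the cytokines they release bias the T cells they prime. Alum is an adjuvant that draws inflammatory cells to the injection site, and the spleen of young mice is a site of blood cell formation. In the design used here the response to injection is the difference between stimulated and naïve pups of mothers of 1 kind. The interaction is the response in at-risk pups minus the response in normal pups, which is the same number as the difference between mothers in stimulated pups minus that in naïve pups. A positive interaction therefore means that the signal after injection was higher, relative to the naïve state, in at-risk than in normal pups, and it can arise from a weaker fall as well as from a stronger rise.

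The defining markers of the sort were high on all 15 arrays, with log2 signals of 12.70 to 13.10 for Itgax (CD11c), 14.08 to 14.14 for H2-Aa, 14.26 to 14.37 for Cd74 and 11.54 to 11.81 for Flt3, the receptor for the DC growth factor. The median intensity of an array was 272.1 to 283.1. The array AF79, a naïve normal array, stood apart: its estimated array weight was 0.124 where the next lowest was 0.651, and the median SD of a probe set was 0.153 in the naïve normal group against 0.102 to 0.104 in the others. AF81, a naïve at-risk array, had a log2 signal of 3.66 for the Y-linked gene Eif2s3y where the other arrays had 9.35 to 11.24, while Xist was at 11.72 to 12.66 on all arrays. The sex of the pups is not given in the labels.

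The interaction passed the test for few genes. It was called for 11 of 22626 probe sets (0.0486%), which represent 10 genes. A probe set was called at a Benjamini-Hochberg adjusted p of at most 0.05 from limma and a log2 change of at least 0.32. All 11 had a positive interaction, and none was called with a negative one. At an unadjusted p under 0.05 there were 1903 probe sets, 979 of them positive (4.33% of all). The response to injection itself was called for 2599 probe sets in normal pups (11.5%), of which 1296 rose (5.73%) and 1303 fell (5.76%). In at-risk pups it was called for 1782 (7.88%), of which 999 rose (4.42%) and 783 fell (3.46%). These responses share no array. Of the calls, 1226 were common to both, which is 47.2% of those in normal and 68.8% of those in at-risk pups, and 1224 of the 1226 had the same direction. Over all probe sets, which share probes, arrays and normalization and are not replicates, the responses had a Pearson r of 0.77. The number of interaction calls depended on single arrays. It was 10 when AF79 was left out and 3 when AF81 was. Without AF79 the calls of Il6, Prom1, Xcl1 and both probe sets of Socs2 were lost, so some of the 10 were other probe sets. Leaving out any of AF82, AF83, AF86, AF87 and AF91 gave 1. The number was 28 without the naïve at-risk array AF80 and 30 without the stimulated at-risk array AF90.

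Most probe sets called in 1 pup group had the same sign of response in the other. Among the 2599 probe sets called in normal pups, the median response in the direction of the call was 0.56 on the log2 scale in normal pups and 0.36 in at-risk pups, and 95.8% had the same sign in both. The first value is raised by the choice of these probe sets in normal pups. The choice of probe sets with a called response can also raise the share with the same sign. Among the 1782 called in at-risk pups, where the choice raises the other value, the medians were 0.59 in at-risk and 0.56 in normal pups. The genes called for the interaction lay to the left of the line of equal responses, in the part of the plot where normal pups fell and at-risk pups fell less or stayed near 0.

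**Figure D1:**
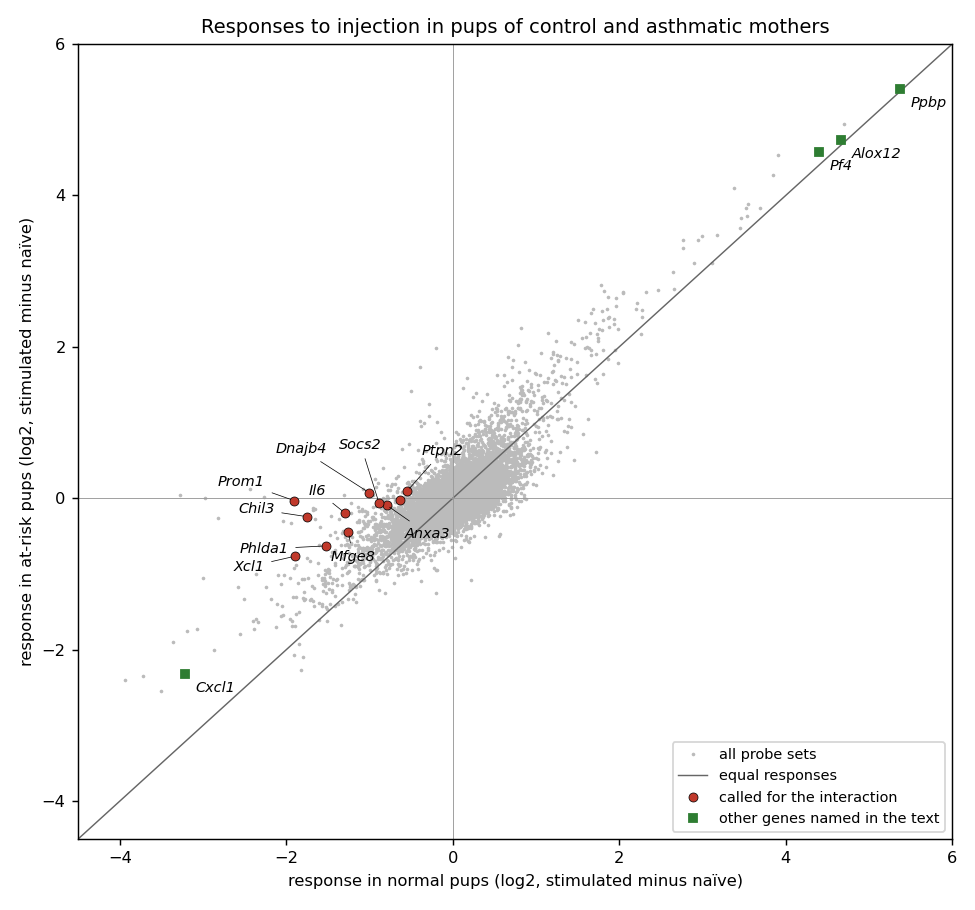
Response to injection (log2, stimulated minus naïve) in normal pups on the x axis and in at-risk pups on the y axis, 1 grey point per probe set, with a line where both are equal. The 11 probe sets called for the interaction (red) sit at -0.55 to -1.91 on the x axis and at -0.77 to 0.09 on the y axis, while Ppbp, Pf4, Alox12 and Cxcl1 (green) are examples of large responses in both.

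In each of the 11 probe sets all stimulated normal arrays lay below all naïve normal arrays. In at-risk pups the arrays of stimulated and naïve pups overlapped for 8 of the 11. The share of all probe sets whose groups did not overlap was not computed. The response of normal pups was a called fall for all 11, against 5.76% of all probe sets. In at-risk pups the fall was called for 3 (Mfge8, Phlda1 and Xcl1), against 3.46% of all probe sets. These falls are components of the interaction that chose the genes and are not further evidence for it. The genes took a pair of shapes, which differ in which group of arrays stood alone. For Il6, Phlda1, Mfge8, Socs2 and Ptpn2 the naïve normal arrays stood above all others and the stimulated groups of both mothers overlapped, except by the dimmer probe set of Socs2. For Chil3 and Prom1 the stimulated normal arrays stood below all others and the naïve groups overlapped. Anxa3, Xcl1 and Dnajb4 had both features, with naïve normal arrays above and stimulated normal arrays below all others. The naïve difference between mothers was negative for all 11 probe sets and called for 7, while the difference in stimulated pups was positive for 9 and called for 1, that of Chil3. Of all 22626 probe sets, the naïve difference was called for 77 and the difference in stimulated pups for 16. Both differences are also components of the interaction that chose the 11, and their signs are not further evidence for it. The naïve normal arrays enter both the naïve difference and the response of normal pups, so a signal that is high on these 3 arrays lowers both.

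**Figure D2:**
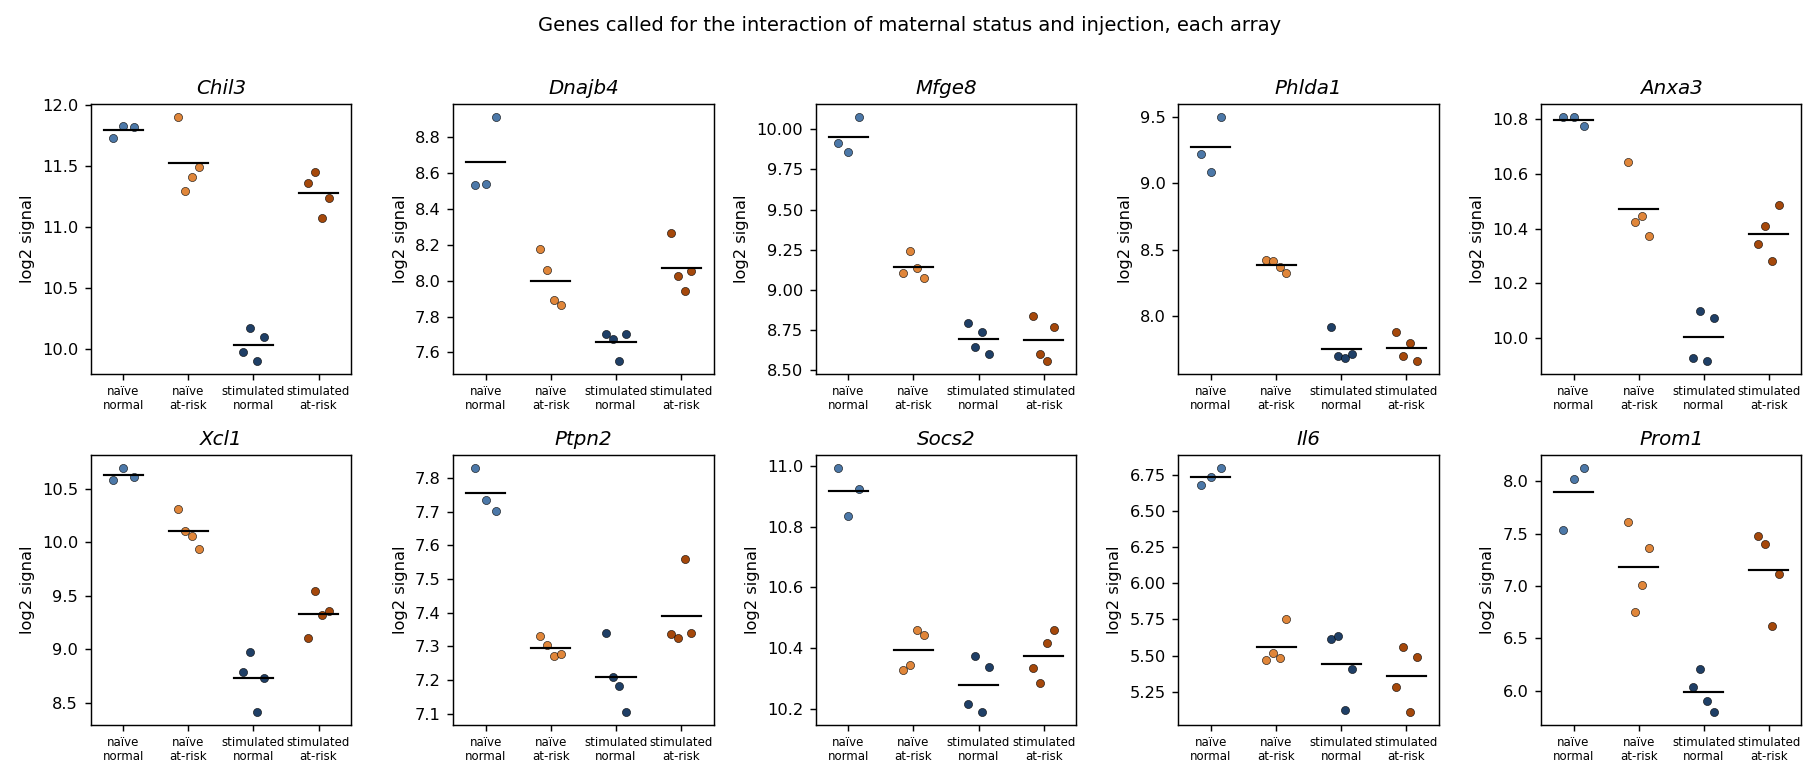
Log2 signal of the 10 genes called for the interaction, 1 point per array, with the mean of each group as a line (for Socs2 the probe set with the smaller adjusted p). In every panel the 4 stimulated normal arrays lie below the 3 naïve normal arrays, and Chil3 is the gene with the smallest adjusted p (0.00682).

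The sequences before the transcription start are shown for 3 of the called genes, which represent both shapes. Like all called genes they lost signal in normal pups. Among the called genes searched, they were also the only ones with a match to a motif. Promoters came from RefSeq on the GRCm38.p6 assembly and were searched on both strands for the STAT motif TTCNNNGAA, the AP-1 motif TGANTCA, the CRE motif TGACGTCA and the consensus motifs of NF-kB and of the CArG box, in the 250 bases before the start. Of the 10 genes, 6 had an entry in the table of promoters, with a second start for Dnajb4 and for Prom1. Matches are in capitals.
Il6, chr5:30012864-30013113, plus strand: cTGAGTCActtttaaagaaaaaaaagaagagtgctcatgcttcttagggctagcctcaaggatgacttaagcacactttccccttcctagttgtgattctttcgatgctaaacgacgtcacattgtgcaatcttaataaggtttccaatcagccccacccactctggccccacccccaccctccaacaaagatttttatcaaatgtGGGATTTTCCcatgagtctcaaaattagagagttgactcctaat
Chil3, chr3:106167565-106167814, minus strand: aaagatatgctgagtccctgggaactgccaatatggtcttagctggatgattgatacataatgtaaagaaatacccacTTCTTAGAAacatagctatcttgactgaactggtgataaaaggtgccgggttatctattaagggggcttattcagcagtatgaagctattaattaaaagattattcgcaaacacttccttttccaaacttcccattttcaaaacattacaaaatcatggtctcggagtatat
Prom1, chr5:44101737-44101986, minus strand: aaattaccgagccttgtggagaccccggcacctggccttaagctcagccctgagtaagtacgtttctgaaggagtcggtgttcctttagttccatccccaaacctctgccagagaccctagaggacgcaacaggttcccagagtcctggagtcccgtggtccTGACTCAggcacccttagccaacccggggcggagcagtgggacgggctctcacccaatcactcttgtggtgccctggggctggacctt

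The Il6 promoter held an AP-1 match at 249 to 243 bases and an NF-kB match at 44 to 35 bases before the start. The Chil3 promoter held a STAT match at 172 to 164 bases, and the Prom1 promoter shown held an AP-1 match at 88 to 82 bases, as did its other start at 189 to 183 bases. No motif was found in these windows of Dnajb4, Mfge8 and Xcl1. Among 32851 promoters of this length, 7.02% held the STAT motif, 6.75% the AP-1 motif, 1.55% the CRE motif, 7.25% the NF-kB motif and 1.47% the CArG motif. The matches are descriptions of letters, and binding at these sites was not measured.

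Chil3, a chitinase-like protein made by alternatively activated macrophages and by maturing neutrophils, had the smallest adjusted p of the interaction. Its log2 signal was 11.73, 11.83 and 11.82 in naïve normal and 11.91, 11.30, 11.41 and 11.50 in naïve at-risk pups. It was 9.98, 10.18, 9.90 and 10.10 in stimulated normal and 11.36, 11.46, 11.08 and 11.24 in stimulated at-risk pups. The stimulated normal arrays thus lay apart from all 11 others. The response was -1.76 in normal pups (adjusted p = 5.83e-07 from limma) and -0.24 in at-risk pups (adjusted p = 0.255). The interaction was 1.51 on the log2 scale (SE 0.17, 95% interval 1.15 to 1.88, adjusted p = 0.00682). Chil3 kept its call without each of the 15 arrays in turn. The other genes lost theirs without any 1 of 5 arrays for Dnajb4, 6 for Mfge8, 7 for Phlda1, 10 for Anxa3 and for Ptpn2, 11 for Xcl1, 12 for Il6 and 13 for Prom1, and of 11 and 14 for the probe sets of Socs2.

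Prom1, the pentaspan membrane protein CD133 of progenitor cells, had the largest interaction among the called probe sets, 1.88 (SE 0.30, 95% interval 1.23 to 2.53, adjusted p = 0.043 from limma). On the log2 scale its signal was 7.54, 8.03 and 8.13 in naïve normal, 7.61, 6.75, 7.01 and 7.36 in naïve at-risk, 6.04, 6.21, 5.91 and 5.79 in stimulated normal and 7.48, 7.40, 6.62 and 7.12 in stimulated at-risk pups. Again the stimulated normal arrays were below all others, with a response of -1.91 in normal (adjusted p = 4.46e-05) and -0.03 in at-risk pups (adjusted p = 0.963).  Anxa3, a calcium-dependent membrane-binding protein abundant in neutrophils, had stimulated normal arrays below and naïve normal arrays above all others. Its log2 signal was 10.77 to 10.81 in naïve normal, 10.37 to 10.64 in naïve at-risk, 9.91 to 10.10 in stimulated normal and 10.28 to 10.49 in stimulated at-risk pups, and its interaction was 0.70 (SE 0.10, adjusted p = 0.0311).

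Il6, the cytokine that signals through gp130 to Stat3, was at 6.68, 6.74 and 6.80 in naïve normal pups and at 5.47, 5.52, 5.48 and 5.75 in naïve at-risk pups on the log2 scale. After injection it was at 5.61, 5.63, 5.12 and 5.40 in normal and at 5.29, 5.56, 5.11 and 5.49 in at-risk pups. Only the naïve normal arrays were above the remainder, which overlapped across the 3 other groups. The response was -1.30 in normal (adjusted p = 1.08e-05 from limma) and -0.20 in at-risk pups (adjusted p = 0.398), and the interaction was 1.10 (SE 0.17, adjusted p = 0.0402). The low groups were near the lower quartile of all probe sets, at 5.00 to 5.09, and the background of the probe set was not measured. Socs2, a feedback inhibitor of cytokine receptors that signal through Stat5, was called by both of its probe sets. The brighter was at 10.84 to 10.99 in naïve normal pups and at 10.33 to 10.46 in naïve at-risk pups, and after injection at 10.19 to 10.37 in normal and at 10.29 to 10.46 in at-risk pups. Its interaction was 0.62 (SE 0.09, adjusted p = 0.0311), and that of the dimmer was 0.83 (SE 0.14, adjusted p = 0.048). Socs3, the inhibitor of gp130 signaling, fell in both pup groups, by 1.54 in normal and by 1.01 in at-risk pups on the log2 scale, and its interaction of 0.54 was not called (adjusted p = 0.321).

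Phlda1, a pleckstrin homology-like protein induced by growth factors and stress, fell in both pup groups and by more in normal pups. Its log2 signal was 9.23, 9.09 and 9.51 in naïve normal, 8.42, 8.42, 8.37 and 8.32 in naïve at-risk, 7.91, 7.70, 7.68 and 7.71 in stimulated normal and 7.87, 7.69, 7.79 and 7.65 in stimulated at-risk pups. The naïve at-risk arrays were intermediate, and the stimulated groups overlapped. The responses were -1.52 and -0.63 (adjusted p = 1.39e-07 and 0.000179 from limma), with an interaction of 0.89 (SE 0.13, adjusted p = 0.0246). Mfge8, the bridging protein through which phagocytes engulf apoptotic cells, also fell in both. It was at 9.92, 9.86 and 10.08 in naïve normal and at 9.11, 9.24, 9.14 and 9.08 in naïve at-risk pups, and at 8.60 to 8.79 and 8.56 to 8.84 in stimulated normal and at-risk pups. Its responses were -1.25 and -0.45, with an interaction of 0.81 (SE 0.11, adjusted p = 0.0246).

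Xcl1, the chemokine of NK and activated CD8+ T cells that attracts Xcr1+ DCs, fell in both pup groups. Its log2 signal was 10.58, 10.70 and 10.61 in naïve normal, 10.31, 10.10, 10.06 and 9.94 in naïve at-risk, 8.79, 8.98, 8.41 and 8.74 in stimulated normal and 9.11, 9.54, 9.32 and 9.36 in stimulated at-risk pups. The 4 groups did not overlap, and the stimulated normal arrays were lowest. The responses were -1.90 and -0.77, with an interaction of 1.13 (SE 0.17, adjusted p = 0.0311 from limma). Among markers of NK cells, which make Xcl1, 8 of 12 measured fell in normal and 9 of 12 in at-risk pups (5.76% and 3.46% of all probe sets), and their median interaction was 0.05. Their part in the Xcl1 result was not tested.

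The remaining called genes are those for which other probe sets differed. Dnajb4, a cochaperone of Hsp70, had log2 signals of 8.53 to 8.91 in naïve normal, 7.87 to 8.18 in naïve at-risk, 7.55 to 7.70 in stimulated normal and 7.94 to 8.27 in stimulated at-risk pups, and an interaction of 1.08 (SE 0.15, adjusted p = 0.0246). Its brighter probe set had an interaction of 0.82 and was not called (adjusted p = 0.304). Ptpn2, a phosphatase that dephosphorylates Jak kinases and Stat proteins, was called by 1 of its 4 probe sets, with an interaction of 0.64 (SE 0.10, adjusted p = 0.0311), while the 3 others were between -0.06 and 0.19. No statement on Ptpn2 as a gene can therefore be made from the probe set that was called.

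The second set of 9 arrays did not enter these fits and holds the stimulated groups of the comparison. There the difference between mothers in stimulated pups was called for 1045 probe sets (4.62%). Of the 11 probe sets called for the interaction, 6 had a positive and 5 a negative difference in the second set, and 2 were called, both negative. Chil3 was at 9.39 to 9.93 in normal and at 9.33 to 11.02 in at-risk pups, so the groups overlapped, with a difference of 0.22 (adjusted p = 0.683 from limma) where the groups of the first set did not overlap (adjusted p = 0.00058). Prom1 was at 5.97 to 6.46 in normal and at 6.41 to 8.20 in at-risk pups, with a difference of 0.70 (adjusted p = 0.257) against 1.17. Both highest values were those of the at-risk array AF123. Without it the difference of Chil3 was -0.06 and that of Prom1 0.36, that of Dnajb4 was 0.27 in place of 0.43, that of Ptpn2 was 0.06 in place of 0.15 and that of Mfge8 was 0.03 in place of 0.07, 5 of the 11 were positive, and the call of Socs2 given next was lost because the change (-0.29) was under the fold threshold, while that of Xcl1 was kept. Xcl1 and Socs2 had the opposite sign in the second set. The difference of Xcl1 was -0.55 (adjusted p = 0.0274) where the first set had 0.60 (not called), and that of the brighter probe set of Socs2 was -0.35 (adjusted p = 0.0426) where the first set had 0.09 (not called). The second set was NuGEN amplified by the methods and held no naïve pups, so neither the interaction nor the fall in normal pups could be computed in it.

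Beyond the calls, 321 probe sets of 1 gene each had an unadjusted p of at most 0.01 and a mean signal at or above the 40th percentile, of which 199 had a positive and 122 a negative interaction. The values that follow did not pass the test, but some were called under other settings (Wfdc21 under 7 of 9, Ms4a3 under 5 and Cd177 under 4) and each of these 3 without AF80 or without AF90. Among the 10 highest were Ms4a3, a membrane protein of myeloid progenitors, with an interaction of 1.77 (adjusted p = 0.0535 from limma), Cd177, a neutrophil surface protein, with 1.55 (0.054), and Wfdc21, a secreted whey acidic protein, with 1.38 (0.0511). Cd177 was at 10.39 to 10.60 in naïve normal, 9.75 to 10.73 in naïve at-risk, 8.58 to 9.14 in stimulated normal and 9.66 to 10.07 in stimulated at-risk pups, the shape of Chil3. Also among the 10 were Prtn3, a serine protease of neutrophil granules, the B cell attracting chemokine Cxcl13, the secreted chaperone Clu by both of its probe sets, asparagine synthetase Asns and an immunoglobulin kappa variable segment, with interactions of 1.35 to 1.52.

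Ms4a3 was also 1 of 2 probe sets called in opposite directions, falling by 1.04 on the log2 scale in normal pups and rising by 0.73 in at-risk pups. Its log2 signal was 7.21 to 7.85 in naïve normal, 6.47 to 7.29 in naïve at-risk, 6.34 to 6.69 in stimulated normal and 6.95 to 7.86 in stimulated at-risk pups, and the stimulated groups did not overlap. The other was Ift80, a component of intraflagellar transport, at -0.35 in normal and 0.36 in at-risk pups, with an interaction of 0.70 (adjusted p = 0.113).

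The lowest interactions that were not called belonged to Mgl2, a lectin of DCs and alternatively activated macrophages, with -1.11 (adjusted p = 0.189 from limma), and Fkbp5, a cochaperone of the glucocorticoid receptor, with -1.05 (adjusted p = 0.134). Fkbp5 was at 9.69 to 10.09 in naïve normal and 11.46 to 11.59 in naïve at-risk pups, and at 9.60 to 9.83 and 9.80 to 10.80 after injection. The naïve at-risk arrays were above all others, and the response was a fall of at-risk pups (-1.25) with -0.20 in normal pups. Mgl2 rose in both pup groups, by 1.72 in normal and by 0.61 in at-risk pups on the log2 scale. The other negative values, for Cd209b, Ikbkb, Gpt2, Sult1a1, Hsph1, Eps8 and Cox7c, were -0.69 to -0.83. Without the naïve normal array AF79, which was low for several of these genes, Hsph1 was at -0.49, Eps8 at -0.51, Ikbkb at -0.58 and Sult1a1 at -0.58, and Fkbp5 was called when AF90 was left out.

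**Figure D3:**
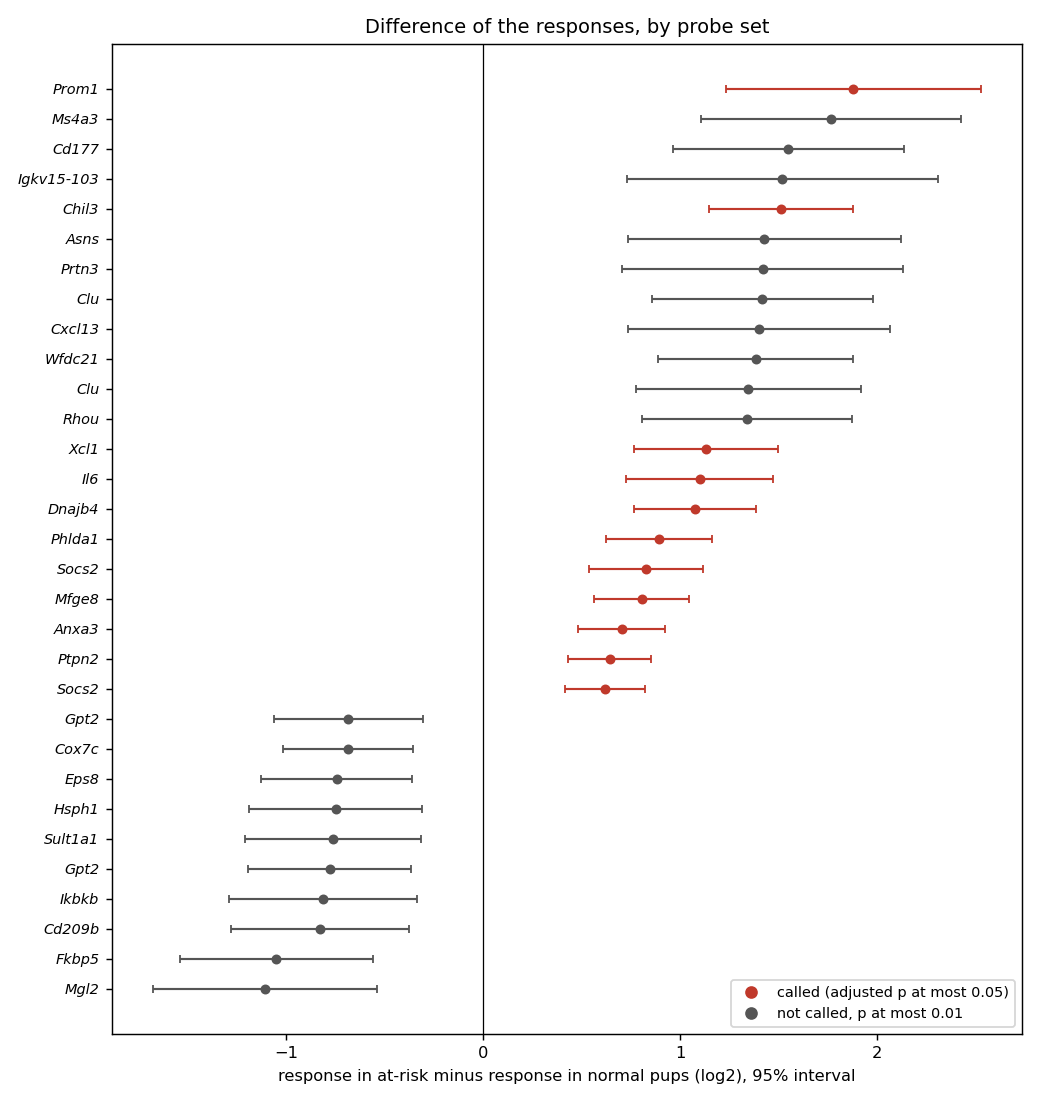
Interaction (log2 response of at-risk pups minus that of normal pups) with its 95% interval for the 11 called probe sets (red) and for the 10 highest and 10 lowest that were not called but had p of at most 0.01 (grey). The called probe sets lie between 0.62 and 1.88, and the highest grey point, Ms4a3, is at 1.77 with a wide interval.

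Markers of neutrophils formed the list with the highest median interaction among the 32 lists examined. Of 20 listed genes 15 were measured, 14 of them had a positive interaction, and the median was 0.82 where the median of all genes was -0.001, with 49.7% positive. At an unadjusted p under 0.05, 11 of the 15 were positive against 4.33% of all probe sets, but only Chil3 was called. In normal pups 8 of the 15 fell (5.76% of all probe sets), among them the granule proteins Ltf (-1.22), Lcn2 (-1.15), Camp (-0.93) and Ngp (-0.74) and the metalloproteinase Mmp9 (-1.02), and none of these was called in at-risk pups. In at-risk pups 4 rose (4.42% of all probe sets) and none fell. These 4 were the proteases and peroxidase of early granules, with responses of 1.59 for Prtn3, 1.45 for Elane, 2.02 for Ctsg and 2.50 for Mpo. Ctsg and Mpo also rose in normal pups, by 0.79 and by 1.68.

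By array, the mean log2 signal of the neutrophil markers was 10.38 to 10.68 in naïve normal, 10.29 to 10.71 in naïve at-risk, 9.91 to 10.24 in stimulated normal and 10.53 to 11.04 in stimulated at-risk pups. The stimulated normal arrays lay below all others. In the second set it was 10.02 to 10.09 in stimulated normal and 9.86 to 11.07 in stimulated at-risk pups, which overlapped. The array AF123 was the highest there. S100a8 and S100a9, both near the top of the array in all groups, had interactions of 0.39 and 0.14. In a bulk sample, fewer cells of a type and less RNA per cell cannot be told apart, and the beads selected CD11c+ cells. Chil3, Anxa3, Ms4a3 and Cd177 are also made by cells of the neutrophil lineage, and the part of these cells in their interactions was not tested. Without AF79 the list had 15 of 15 positive with a median of 1.02, and without AF81 14 of 15 with a median of 0.73.

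**Figure D4:**
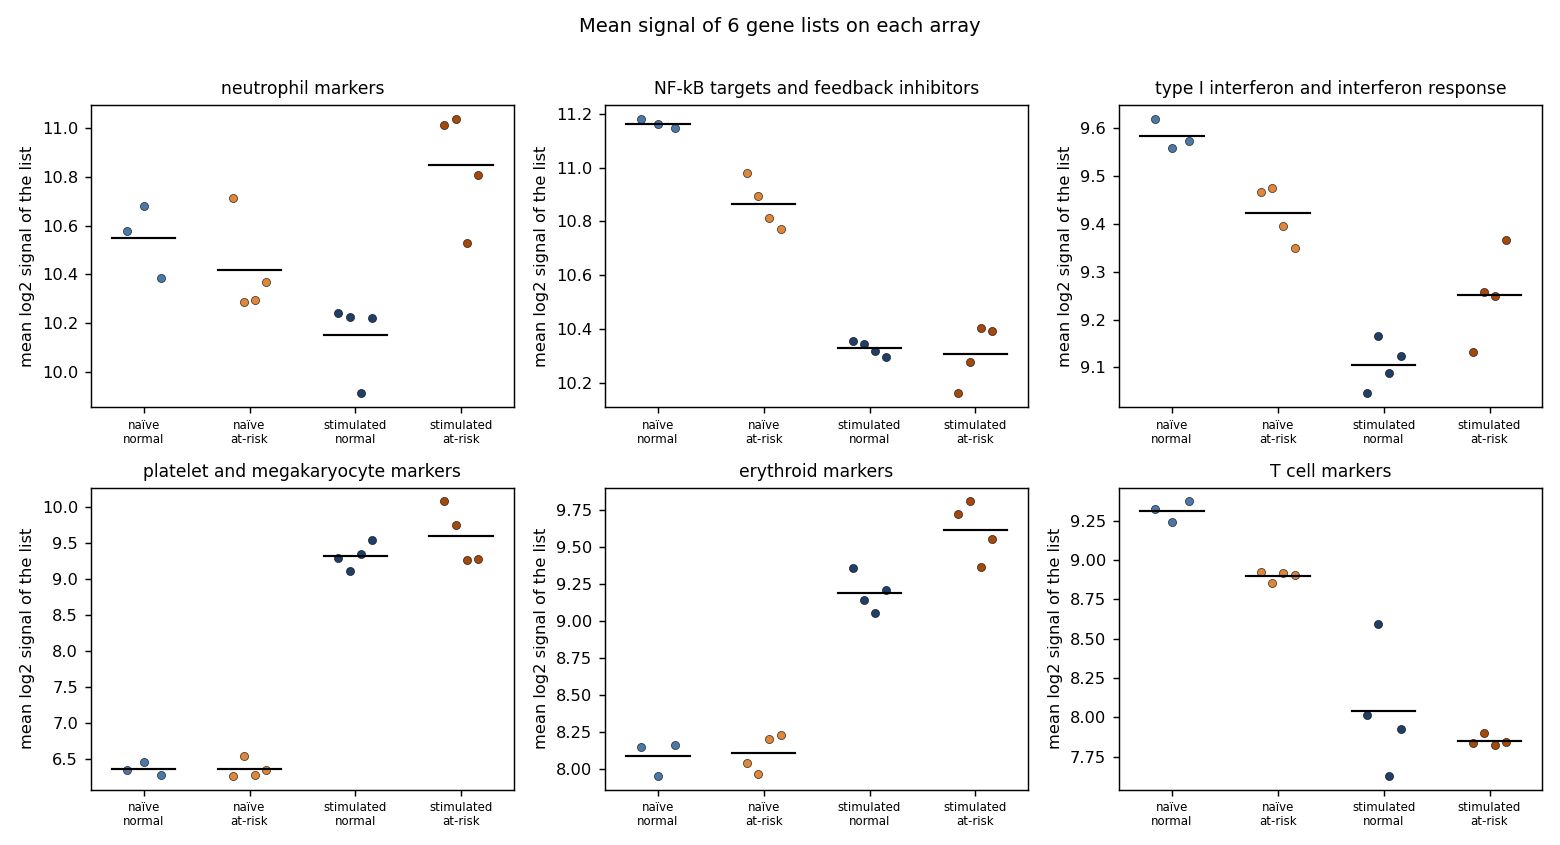
Mean log2 signal of the measured genes of 6 lists on each array, with group means as lines. The neutrophil markers are lowest on the 4 stimulated normal arrays (9.91 to 10.24), the NF-kB and interferon lists are highest on the naïve normal arrays, and platelet and erythroid markers are higher on all stimulated arrays than on all naïve arrays.

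Targets of NF-kB, the transcription factor of inflammatory signaling, held more falls than rises. Of 23 measured, 15 fell in normal pups (5.76% of all probe sets) and 10 in at-risk pups (3.46%), with none called higher in either. A positive interaction was found for 21 of the 23 (49.7% of all genes), with a median of 0.25, and none was called. Cxcl1, a chemokine that attracts neutrophils, fell by 3.22 in normal and by 2.33 in at-risk pups on the log2 scale, with an interaction of 0.89 (adjusted p = 0.113 from limma). Tnf fell by 1.10 and by 0.51, with an interaction of 0.58. Cxcl2 (-1.85 and -1.92) and Tnfaip3 (-1.09 and -1.07), the ubiquitin-editing inhibitor of NF-kB, fell to a like extent in both. The mean of the list was 11.15 to 11.18 in naïve normal, 10.77 to 10.98 in naïve at-risk, 10.29 to 10.36 in stimulated normal and 10.16 to 10.40 in stimulated at-risk pups. The naïve groups did not overlap and the stimulated groups did. In the second set the stimulated groups did not overlap, at 10.28 to 10.41 in normal and 9.75 to 10.06 in at-risk pups.

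Type I interferon and interferon-induced genes were the response list with the highest median interaction. Of 19 measured, 15 had a positive interaction with a median of 0.31, and 11 were positive at an unadjusted p under 0.05 (4.33% of all probe sets), with none called. In normal pups 10 fell (5.76% of all probe sets), and in at-risk pups 3 fell (3.46%) and 1 rose (4.42%), the last a share near that of all probe sets. Ifnb1, the gene of interferon beta, whose mean signal was below the lower quartile, fell by 1.89 in normal and by 0.88 in at-risk pups on the log2 scale. Its interaction was 1.00 (adjusted p = 0.0713 from limma). Cxcl10, the interferon-induced chemokine, fell in normal pups (-0.82) with -0.17 in at-risk pups, and Ifih1, the sensor of viral RNA, fell in normal pups (-0.53) with -0.07 in at-risk pups. Rsad2, an antiviral enzyme, rose in at-risk pups (0.40) with 0.08 in normal pups. Stat2, Irf9, Irf7 and Mx1 were not called in either response and had interactions of -0.17, 0.01, 0.07 and -0.13.

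Among chemokine ligands 17 of 22 had a positive interaction, with a median of 0.17, and Xcl1 was called. Cxcl13, which positions B cells in follicles, fell by 2.58 in normal and by 1.18 in at-risk pups on the log2 scale. Ccl4 fell by 2.06 and by 1.42, and Ccl2, which attracts monocytes, by 1.52 and by 0.97. In the list of cytokines and receptors of allergy 17 of 22 had a positive interaction (median 0.10, none called). Il10, an inhibitory cytokine, whose mean signal was below the lower quartile with no background measured, fell in both (-1.46 and -0.71), Il12b fell in normal pups (-0.48) with 0.07 in at-risk pups, and Il12a rose in at-risk pups (0.54) with 0.03 in normal pups, 2 genes that encode the subunits of IL-12. In the list of IL-6 and Jak-Stat genes, where Il6 and Socs2 were called, the median of 21 genes was 0.09, and 7 fell in normal and 2 in at-risk pups (5.76% and 3.46% of all probe sets).

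The largest rises in the lists came from markers of other blood cells. All 12 platelet and megakaryocyte markers rose in at-risk and 11 of 12 in normal pups, where 4.42% and 5.73% of all probe sets did. Ppbp rose by 5.37 in normal and by 5.40 in at-risk pups on the log2 scale, Alox12 by 4.66 and by 4.73 and Pf4 by 4.40 and by 4.57, with interactions of 0.03 (95% interval -0.69 to 0.76), 0.07 (-0.58 to 0.73) and 0.17 (-0.34 to 0.69). The mean of the list was 6.26 to 6.53 on the naïve and 9.11 to 10.08 on the stimulated arrays of the first set. On the stimulated arrays of the second set it was 6.72 to 6.92 in normal and 7.98 to 9.21 in at-risk pups, which did not overlap. Of 13 erythroid markers 11 rose in each pup group (the same shares of all probe sets). Their interactions were positive for 11, with a median of 0.41. Their mean in the second set was 8.54 to 8.69 in stimulated normal and 9.13 to 10.50 in stimulated at-risk pups. Rhag, a membrane protein of red cell precursors, rose by 1.59 and by 2.33, with an interaction of 0.75 (adjusted p = 0.149 from limma). Of 12 T cell markers all fell in normal and 10 in at-risk pups (5.76% and 3.46% of all probe sets), with a median interaction of 0.26. Their list mean was 9.24 to 9.37 in naïve normal and 8.86 to 8.92 in naïve at-risk pups. After injection it was 7.63 to 8.59 in normal and 7.83 to 7.90 in at-risk pups. Stimulated groups of the second set did not overlap, at 8.34 to 8.40 in normal and 7.63 to 8.02 in at-risk pups. The part of these markers in the interaction calls was not tested.

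Immediate early genes, which are switched on within minutes of a stimulus, held only falls among their calls. Of 29 measured, 19 fell in normal and 18 in at-risk pups (5.76% and 3.46% of all probe sets), with a median interaction of 0.02. Atf3 fell by 1.61 in each, while Maff fell by 1.63 in normal and by 0.86 in at-risk pups, with an interaction of 0.77 (adjusted p = 0.329 from limma). Of 23 cell cycle genes 11 rose in normal and 13 in at-risk pups (5.73% and 4.42% of all probe sets), with a median interaction of 0.00. Of 11 genes of antigen presentation by MHC class II, none was called in normal pups and 1 fell in at-risk pups (3.46% of all probe sets), and their median interaction was 0.00. Markers of conventional DCs went the other way from most lists. Of 12 measured, 10 had a negative interaction with a median of -0.11, and 3 rose in normal pups (5.73% of all probe sets) with none called in at-risk pups. Those 3 were Xcr1, the receptor for Xcl1 (0.80, with 0.21 in at-risk pups), Itgae (0.62 and 0.34) and the transcription factor Zbtb46 (0.48 and 0.25). AF79 was low for Xcr1, at 9.8 where the other naïve normal arrays were at 10.5 and 10.7. Without AF79 the list had 1 of 12 positive with a median of -0.09. At an unadjusted p under 0.05, 1 interaction was then negative in place of 3.

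Genes of the amino acid and ER stress response had 16 of 20 positive interactions, with a median of 0.25 and none called. Asns rose by 1.14 in normal and by 2.19 in at-risk pups on the log2 scale by its brighter probe set, with an interaction of 1.05 (adjusted p = 0.085 from limma). Trib3, a pseudokinase induced by Atf4, rose in at-risk pups (1.63) with 0.53 in normal pups. By that probe set of Asns all stimulated arrays were above all naïve arrays. Among 14 genes of the glucocorticoid response 6 were positive, with a median of -0.03 and no common direction: Mt2, a metallothionein, rose by 0.79 and by 1.67, and Klf9 fell in normal pups (-0.70) with -0.15 in at-risk pups, while Fkbp5 went the opposite way.

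**Figure D5:**
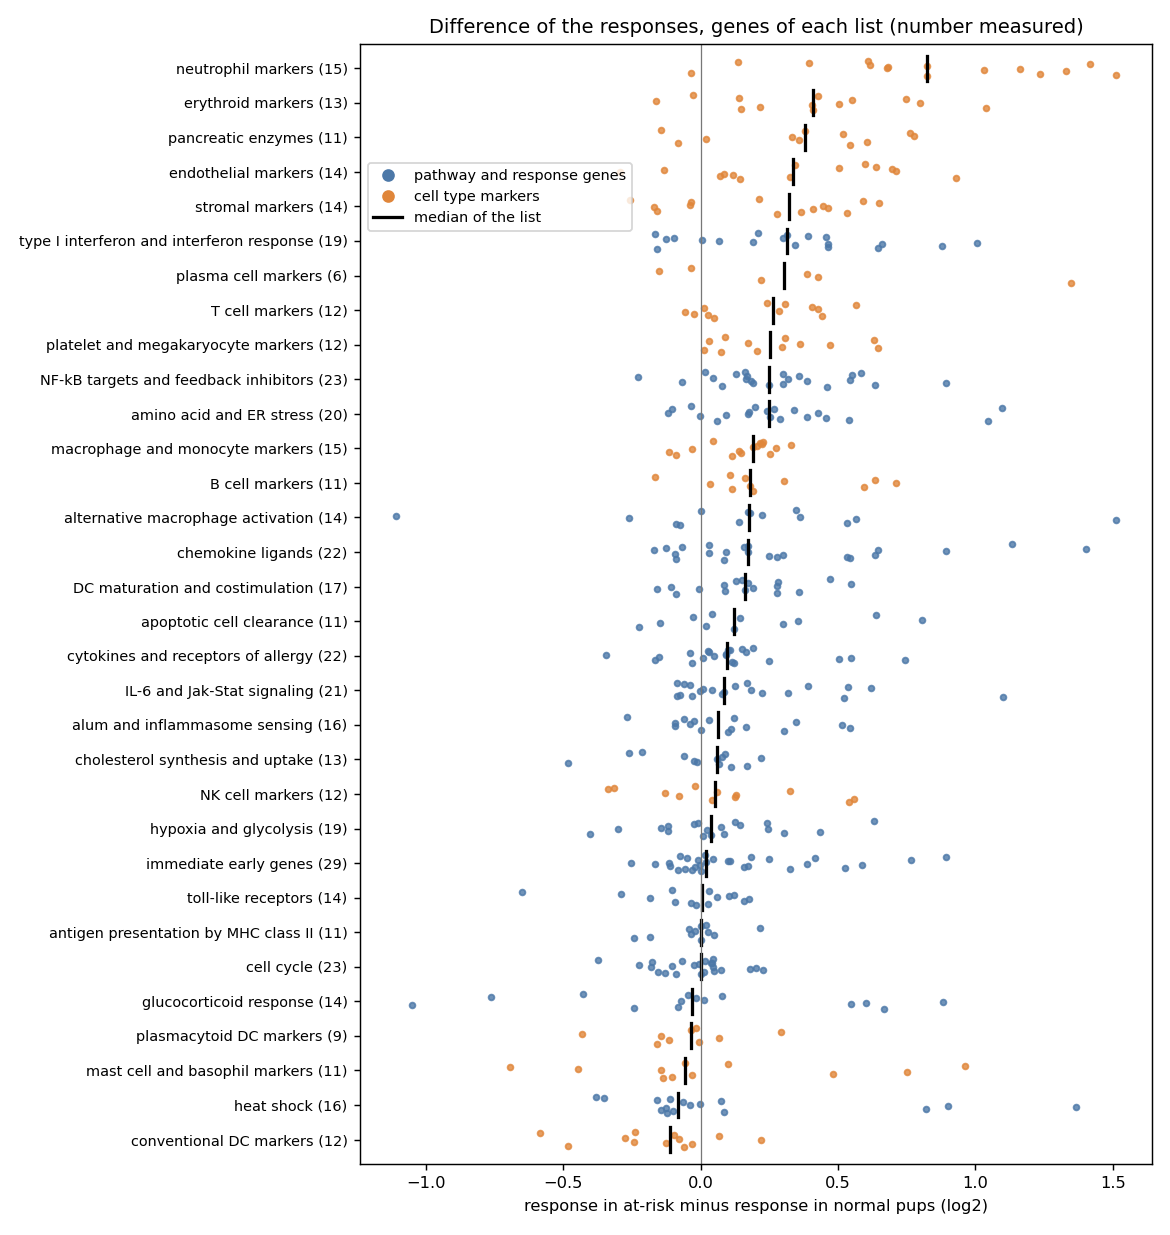
Interaction (log2) of each measured gene of the 32 lists, with the number measured and the median of each list as a line, sorted by the median. Neutrophil markers have the highest median (0.82) and conventional DC markers the lowest (-0.11), and the lists overlap.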

How the data were processed

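RNA was hybridized to Affymetrix mouse expression arrays. The authors deposited linear intensities, 1 for each probe set, made with RMA, an algorithm of background correction, quantile normalization and median polish (no version stated in the labels or methods). The methods name a RefSeq-based probe set definition, while the deposited intensities carried Affymetrix probe set names. Log2 of the deposited values was taken with no pseudocount, and 64 control probe sets were left out. Signal over background was not given.

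Symbols came from the platform annotation: 1 symbol was given for 20380 of the 22626 probe sets, several for 691 and none for 1555, and genes were named only from the first kind. In the lists the probe set of the highest mean stood for its gene. A linear model with 1 mean per group was fitted to the 15 arrays with lmFit and eBayes of limma 3.58.1 (R 4.3.3), and the interaction and both responses were contrasts of these means. The second set was fitted alone. Calls needed a Benjamini-Hochberg adjusted p of at most 0.05 and a fold of at least 1.25. The fits were tested on simulated data. Figures were drawn with matplotlib 3.10.9, and tables were made with pandas 2.3.3 and numpy 2.4.6 in Python 3.11.15.

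The comparison, the lists (18 of responses, 14 of cell type markers) and the genes to name were chosen with earlier results of these data known. Named were every gene called for the interaction, the 10 highest and 10 lowest interactions with an unadjusted p of at most 0.01 at or above the 40th percentile of mean signal that were not called, up to 3 members per list with the smallest p, the 8 largest rises and falls called in each response, genes called in opposite directions, and Il6, Socs3, Fkbp5, Chil3 and Phlda1. Other list members in the text were chosen after their values were seen. No set test was run, and lists are described by counts and medians. Each array was left out in turn, and all 24 arrays in the fit, other normalizations, filters, thresholds and weights were tried. Leaving AF79 or AF81 out of the lists, and AF123 out of the second set, was chosen after seeing the data.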

Additional observations from a re-analysis of the deposited data

Results flagged for a closer look

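The 11 probe sets called for the interaction were flagged because the responses of the pup groups differed by a test of that difference. On the log2 scale the interactions were 1.51 for Chil3, 1.88 for Prom1, 1.13 for Xcl1, 1.10 for Il6, 1.08 for Dnajb4, 0.89 for Phlda1, 0.83 and 0.62 for the probe sets of Socs2, 0.81 for Mfge8, 0.70 for Anxa3 and 0.64 for Ptpn2.

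Single arrays far from the others of their group were sought in groups of 4 arrays for the probe sets chosen by the naming rule. Other list members in the text, and the naïve normal group with its 3 arrays, were not searched. Of 396 groups 18 were flagged, where chance flags about 5% of groups. Among genes of the interaction these were Ptpn2 on AF90 with a log2 signal of 7.56, Phlda1 on AF84 with 7.91, Wfdc21, Rhou and Prtn3 on AF80 with 10.45, 9.26 and 6.88, Eps8 on AF85 with 9.01, Gpt2 on AF88 with 8.26 and Cxcl13 on AF87 with 6.95. Without AF80 the interactions of Wfdc21, Cd177, Ms4a3 and Rhou were called, and without AF90 these 4 and 3 others (Clu by 1 probe set, Prtn3 and Fkbp5). The others were Rhag and Cxcl1 on AF90 with 8.52 and 5.73, Cdkn1a on AF83 with 9.60, Aldoc on AF84 with 8.02, Ctsl on AF89 with 11.94, Cela2a and Prss2 on AF82 with 7.34 and 8.59, Pf4 on AF87 with 12.06, and Fasl and Ppbp on AF81 with 8.10 and 7.26.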

How the results depend on the processing

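The interaction was called for 11 probe sets, and for 1 to 30 when 1 array was left out. The count was 19 with median centring of each array, 21 without probe sets under the 40th percentile, 21 with trend and robust estimation, 42 with array weights (35 positive and 7 negative), 21 with 1 probe set per gene, and 0 when the fold threshold itself was tested with limma's treat (196 at an unadjusted p under 0.05). All 11 called probe sets were among the 42. With all 24 arrays in the fit the count was 16, of which 6 were shared with the 11, and Chil3, Dnajb4, Anxa3, Ptpn2 and Prom1 lost their calls. The response of normal pups was called for 2599 probe sets, for 579 with treat, for 1490 with 1 probe set per gene (fewer probe sets tested) and for 2108 to 3109 when 1 array was left out. The response of at-risk pups was called for 1782 probe sets, for 512 with treat, for 1057 with 1 probe set per gene and for 1458 to 2074 when 1 array was left out. The interactions of the 11 called probe sets kept their sign under each of these settings in which they were fitted. So did those of Socs3 and of the named highest and lowest interactions that were not called. The sign of the other named interactions, such as that of Ppbp, was not tested across these settings. Other scalings moved the median interaction of all probe sets by 0.00 with quantile normalization and by 0.01 with median centring. No paired analysis was possible because the groups share no replicate numbers. The cause of these changes was not tested, and the number of arrays limits the precision.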
